A study of Mus musculus with 5 samples.

Results

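The genes described here are Myc, its relative Mycn, and the genes that control passage through G1, the phase before DNA is copied. They are the D-type cyclin genes Ccnd1, Ccnd2 and Ccnd3, the kinase genes Cdk4 and Cdk6, and the inhibitor genes Cdkn1a, Cdkn1b and Cdkn2a. The 10 genes were taken by name from 21521 protein-coding genes of the mouse. By its title the study tests phase separation in how EBF1 acts as a pioneer, a factor that binds closed chromatin. EBF1 is a transcription factor without which B cells do not form. The cells were pro-B cells, an early B-lymphocyte stage, made from fetal liver cells that lack Ebf1 (Ebf1-/-) and that received EBF1 YmA or EBF1 wt by transduction, so EBF1 came from the transduced copy in every group. The series holds 5 libraries, each the only one of its group: EBF1 ChIP with EBF1 YmA, BRG1 ChIP with EBF1 YmA, EBF1 ChIP with EBF1 wt, and the inputs of the EBF1 and BRG1 ChIPs, both labelled EBF1 wt. The list of EBF1 sites deposited with the EBF1 wt library was analysed here, and the other 4 libraries were not. ChIP-seq sequences the DNA that an antibody pulls down from crosslinked, sheared chromatin, here an antibody against EBF1.

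D-type cyclins bind CDK4 or CDK6, and the active kinase phosphorylates the retinoblastoma protein, which then releases E2F factors that switch on genes for DNA synthesis. The inhibitors p21 (Cdkn1a) and p27 (Cdkn1b) hold cyclin-kinase complexes in check. Cdkn2a encodes p16, which binds CDK4 and CDK6, and ARF, which stabilises p53. Myc and Mycn encode transcription factors that promote growth and division. In early B cells, division driven by interleukin 7 and by the pre-B-cell receptor alternates with arrest, during which immunoglobulin genes are recombined.

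The list holds 7494 sites on 20 chromosomes, each 300 bp wide, as positions with a class per site that the authors named YmA-dep, YmA-ind or CTD-ind. It carries no score or read count, so neither site strength nor depth is known, and a gene without a listed site cannot be read as unbound. The sources used here do not say how the classes were made or what their names mean. Whether the list was made from the EBF1 wt library alone is also not stated. The file holds no expression values, so the pro-B label was not checked against marker genes. With 1 library per group there is no replicate, and no test was made. Coordinates are GRCm38, counted from 1. Each site was placed by its centre and went to the shortest protein-coding gene holding it, or otherwise to the nearest one within 100 kb.

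Of the 10 genes, 5 had an assigned site (50.0%), against 19.6% of all protein-coding genes. With 10 genes, the exact 95% interval of this share runs from 18.7 to 81.3%. It covers counting error only, and it includes the 19.6%. Ccnd3 had 3 sites, and Mycn, Ccnd1, Cdk6 and Cdkn1a had 1 each. Myc, Ccnd2, Cdk4, Cdkn1b and Cdkn2a had none. Over all protein-coding genes, 2.99% had 3 or more sites, as Ccnd3 did. The count rested on sites outside the genes. With a limit of 20 kb, 3 of the 10 genes had one, and with non-coding genes also allowed to take sites, 2 had one. The share of all protein-coding genes was not computed under these other rules, so the 19.6% does not apply to them.

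YmA-ind made up 5 of the 7 assigned sites, CTD-ind 2 and YmA-dep 0. Over all 7082 assigned sites, YmA-ind made up 53.6%, CTD-ind 35.1% and YmA-dep 11.2%. With 7 sites, the exact 95% interval of the YmA-dep share reaches up to 41.0%, so these sites are too few to compare classes. The interval covers counting error only and takes the sites as independent, although 3 of the 7 lie in 1 gene, Ccnd3. A YmA-ind site was assigned to 4 of the 10 genes, against 12.2% of all protein-coding genes. A CTD-ind site was assigned to 2 of the 10 genes, against 9.32%, and a YmA-dep site to 0 of the 10, against 3.26%. The sites inside the gene numbered 4 of 7 (57.1%), against 59.6% over all assigned sites, and these 4 lay in Ccnd3 and Cdk6, 2 of the 10 genes, against 12.9% of all protein-coding genes with an assigned site inside.

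**Figure D1:**
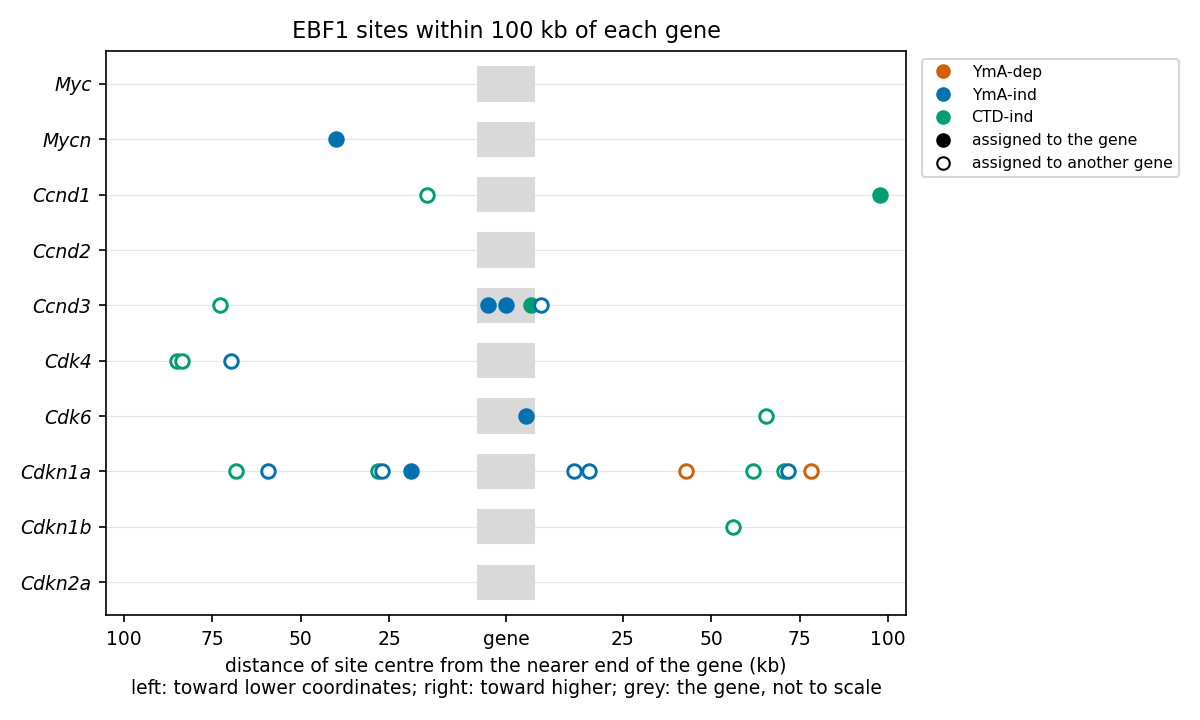
EBF1 sites within 100 kb of each of the 10 genes, by distance in kb from the nearer gene end, with lower coordinates to the left. Filled circles are assigned to the gene and open circles to another gene, and colour gives the class. Cdkn1a has 12 sites in this window and Myc, Ccnd2 and Cdkn2a have 0.

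Myc stood apart from listed EBF1 sites. Its span on chromosome 15 (chr15:61985341-61990361) held none, and none lay within 100 kb. The nearest was a YmA-ind site at chr15:62328866-62329165, 339 kb above the higher-coordinate end of the gene. Of all protein-coding genes, 25.3% were as far from a site or farther, so this distance was not rare. A second YmA-ind site at chr15:62698633-62698932 lay 708 kb away and also had Myc as its nearest protein-coding gene. These 2 sites are beyond the 100 kb limit and were assigned to no gene.

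Toward lower coordinates the nearest site was 1.16 Mb from Myc, a CTD-ind site inside Lratd2, so that Myc sat in a stretch of 1504 kb without a listed site. The long non-coding RNA gene Pvt1 (chr15:62037986-62260215), which lies 47.6 kb from Myc, held no site, and the nearest lay 68.8 kb from it. Within 2 Mb of Myc lay 8 sites, 1 below the gene and 7 above it, against a median of 15 sites around a protein-coding gene. The 7 above lay between Myc and the next protein-coding gene, Gsdmc, whose near end is 1.79 Mb from Myc.

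Of these 7 sites, 4 stood within 96.7 kb of each other near Gsdmc. They lay 1.63, 1.65, 1.67 and 1.73 Mb from Myc, starting with chr15:63619995-63620294 and ending with chr15:63716734-63717033. The third was CTD-ind and the other 3 were YmA-ind. A YmA-dep site at chr15:63300720-63301019 lay 1.31 Mb from Myc, the single site of that class within 2 Mb. The interval between Pvt1 and Gsdmc is known in mouse blood cells for a remote enhancer cluster of Myc, and whether these sites fall on its elements was not tested. The nearest protein-coding gene of these 5 sites was Gsdmc.

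Mycn, the relative of Myc used in early lymphocytes and in embryonic tissue, had sites on 1 side of the gene. The gene (chr12:12936093-12941836) is read toward lower coordinates. A YmA-ind site at chr12:12895933-12896232 lay 40.0 kb beyond its 3′ end and 45.8 kb from its start, in no annotated coding or non-coding gene. A further 4 sites beyond 100 kb had Mycn as their nearest protein-coding gene, at 119, 123, 132 and 197 kb, and each was YmA-ind. The 3 nearest of these 4 fell within 13.6 kb, from chr12:12803610-12803909 to chr12:12817163-12817462. With no distance limit Mycn would therefore have 5 sites in place of 1.

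All 12 sites within 2 Mb of Mycn lay on its 3′ side, 9 of them YmA-ind, 3 CTD-ind and 0 YmA-dep. On the side of its start the nearest listed site was 3.19 Mb away, beyond Ddx1, whose near end is 0.277 Mb from Mycn. The gap between the sites on either side was 3.24 Mb. Of the 12 sites, 8 lay between Mycn and its neighbour Cyria, which is 0.555 Mb away, and 3 of these 8 were nearer to Cyria. The median of 15 sites within 2 Mb of a protein-coding gene stands a little above the 12 at Mycn. The plot of sites within 2 Mb shows most sites of Myc and all of Mycn to opposite sides in coordinates. No strand was used here for Myc, so its sites were not placed on its 5′ or 3′ side.

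**Figure D2:**
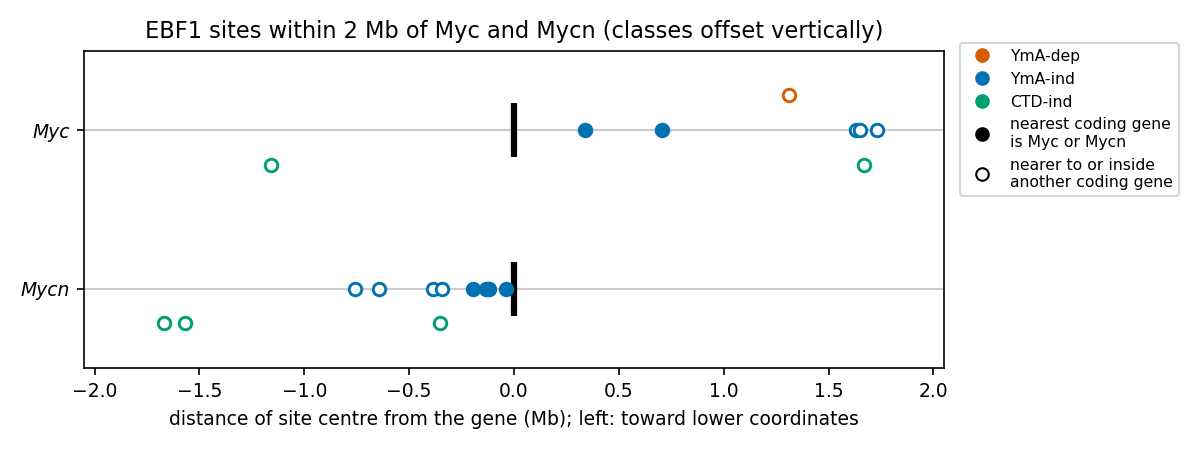
EBF1 sites within 2 Mb of Myc (top) and Mycn (bottom), by distance in Mb, with lower coordinates to the left. Filled circles have Myc or Mycn as nearest protein-coding gene, and colour and vertical offset give the class. At Myc 7 of 8 sites lie above the gene, and at Mycn 12 of 12 lie below it.

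Among the D-type cyclin genes, Ccnd3 carried 3 sites, Ccnd1 1 and Ccnd2 0. Ccnd3 encodes cyclin D3, which pre-B cells need to expand after the pre-B-cell receptor signals. Its gene (chr17:47505051-47599689) spans 94.6 kb and has starts listed at both 47505051 and 47593467. A YmA-ind site at chr17:47521985-47522284 lay 17.1 kb after the first start, and a second YmA-ind site at chr17:47553017-47553316 lay 48.1 kb after it, near the middle of the gene. The third site, CTD-ind, at chr17:47594207-47594506, lay 0.889 kb after the second start. The 3 sites therefore stood 31.0 and 41.2 kb apart. Exons and introns were not annotated in the gene table used.

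Another site stood just past the 3′ end of Ccnd3. This YmA-ind site (chr17:47601456-47601755) was 1.92 kb outside Ccnd3 and inside Bysl, to which it was assigned, and it lay 7.25 kb from the CTD-ind site inside Ccnd3. A CTD-ind site lay 72.9 kb before the gene inside 1700001C19Rik. The 5 sites within 100 kb compare with a median of 1.0 over protein-coding genes, of which 8.37% had as many. When counts were split by class and by place (inside, within 10 kb outside, or farther), 32 other protein-coding genes had the same 9 counts as Ccnd3, too many to name.

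Ccnd1 and Ccnd2 differed from Ccnd3 in having no site inside. Ccnd1 (chr7:144929931-144939831), the gene of cyclin D1, received a CTD-ind site at chr7:145037277-145037576, 97.6 kb away. That site is the last one inside the 100 kb limit among the 10 genes, and the first one beyond it is the Mycn site at 119 kb. A nearer CTD-ind site, 14.4 kb from Ccnd1 (chr7:144915360-144915659), lay inside LTO1 and was assigned to that gene. Ccnd2 (chr6:127125162-127152188), the gene of cyclin D2, had no site within 100 kb. Its nearest was a YmA-ind site 213 kb away, assigned to Parp11, and 32.9% of protein-coding genes were as far from a site or farther.

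The kinase genes that pair with these cyclins also differed from each other. Cdk6 (chr5:3341004-3531008), which is much used in blood cells, held a YmA-ind site at chr5:3501658-3501957. This site lay 158 kb after the listed start and 29.2 kb from the 3′ end of a gene of 190 kb. A CTD-ind site 65.5 kb past Cdk6 lay inside Rbm48 and was assigned there. Cdk4 (chr10:127063535-127067288) had no assigned site. The 3 sites within 100 kb of it, 69.7, 83.6 and 84.9 kb before its start, belonged to the phosphatase gene Ctdsp2. Of these the nearest was YmA-ind and the other two were CTD-ind.

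Among the inhibitor genes, Cdkn1a stood in a region dense with sites, although 1 of them was assigned to it. Within 100 kb of Cdkn1a (chr17:29090979-29100722) lay 12 sites. YmA-ind sites numbered 6, CTD-ind sites 4 and YmA-dep sites 2. As many sites within 100 kb were found at 0.214% of protein-coding genes, 46 of 21521. The median was 1.0 over protein-coding genes and 1.5 over the 10 genes described here. The assigned site was YmA-ind (chr17:29071869-29072168) and lay 19.0 kb before the first listed start.

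That site lay inside Trp53cor1 (chr17:29057474-29079126), the gene of a long non-coding RNA that p53 induces, also called lincRNA-p21, which is 11.9 kb from Cdkn1a. Trp53cor1 held 3 sites, and the other two, CTD-ind at 28.2 kb and YmA-ind at 27.1 kb from Cdkn1a, were assigned to Srsf3, the nearer protein-coding gene, which encodes a splicing factor. They stood 1.12 kb apart. A further 2 sites, 59.3 and 68.4 kb from Cdkn1a, also went to Srsf3.

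On the other side, 7 sites lay past the 3′ end of Cdkn1a. Rab44 had 3, a YmA-ind site 11.2 kb from Cdkn1a that is the nearest of all (chr17:29111782-29112081), another YmA-ind site at 15.5 kb and a YmA-dep site at 42.8 kb. Cpne5 held 4 sites, from 61.9 to 78.1 kb, of which 2 were CTD-ind, 1 YmA-ind and 1 YmA-dep. No site lay in Cdkn1a itself or within 10 kb of it. With the nearest listed start in place of the nearest span, Cdkn1a would have 3 sites. With non-coding genes allowed to take sites it would have 0.

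Cdkn1b and Cdkn2a had no assigned site. Cdkn1b (chr6:134920401-134925525) had 1 within 100 kb, a CTD-ind site 56.2 kb past the gene that lay 0.27 kb outside Apold1. That number equals the median of 1.0 over protein-coding genes, and its distance is under the median of 82.8 kb. Cdkn2a (chr4:89274473-89294619) had none within 100 kb. Its nearest was a YmA-ind site at chr4:89138000-89138299, 136 kb away inside Mtap, and 40.9% of protein-coding genes were as far from a site or farther. Over these genes and the 4 other genes of the same inhibitor families in the lists below (Cdkn1c, Cdkn2b, Cdkn2c and Cdkn2d), 1 of 7 (14.3%) had an assigned site, that of Cdkn1a, which stands near the 19.6% of all protein-coding genes.

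**Figure D3:**
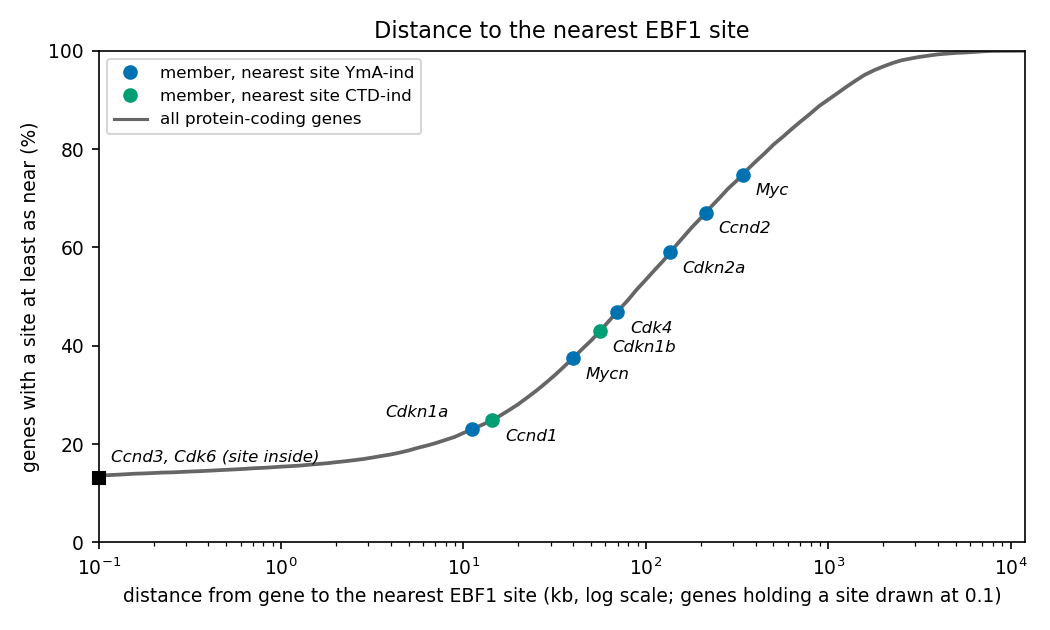
Share of protein-coding genes (%) with an EBF1 site at or within each distance (kb, log scale). Circles mark where 8 of the 10 genes fall, coloured by the class of their nearest site, and the square marks Ccnd3 and Cdk6, which hold a site. Cdkn1a at 11.2 kb is the nearest of the 8 and Myc at 339 kb the farthest.

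In the order of distance to the nearest listed site, Ccnd3 and Cdk6 came first with a site inside. Cdkn1a (11.2 kb), Ccnd1 (14.4 kb), Mycn (40.0 kb), Cdkn1b (56.2 kb), Cdk4 (69.7 kb), Cdkn2a (136 kb), Ccnd2 (213 kb) and Myc (339 kb) followed. The median was 48.1 kb over the 10 genes and 82.8 kb over all protein-coding genes. A site inside the gene or within 10 kb, whatever gene it was assigned to, was found at 2 of the 10, against 22.3% of all protein-coding genes. Within 100 kb it was found at 7 of the 10 (70.0%), against 53.4%. The first of these shares, 20.0%, stands near the background. More than 200 kb from any site were 2 of the 10, Ccnd2 and Myc, against 34.0% of all protein-coding genes. Together the 7 genes had 26 distinct sites within 100 kb, 12 of them at Cdkn1a. Of these 26, 7 were assigned to the gene itself.

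The starts of the genes were compared with the sites through RefSeq promoter windows (GRCm38.p6), each running from 250 bases before a start to 50 after it. Of the 10 genes, 7 were matched by gene ID, with 10 windows, and 0 of these 10 overlapped a site. Over all 32619 windows on the 20 chromosomes, 2.08% did. The sequence that EBF proteins bind is a palindrome, which was searched as TCCCNNGGGA and as its core CCCNNGGG, each of which reads the same on both strands. The core is part of the longer form. The longer form was in 0 of the 10 windows, in 11.2% of the 680 windows that overlap a site and in 0.907% of all windows. The core was in 5 of the 10 windows, in 46.3% of windows that overlap a site and in 13.8% of all windows. The core fixes only C and G bases, and the base composition of the windows was not compared.

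The cores of these 5 windows are shown with those of the 3 pathway genes whose windows overlap a site. Windows were picked for display because they hold the core, so its presence in both groups is no result. The displayed windows of the 3 pathway genes do not hold the longer form either. The window of another Mxi1 start overlaps the same site and does not hold the core. Each line gives 30 bases of RefSeq sequence on the strand of the gene, with the core in capitals. The first 5 are from windows without a site and the last 3 from windows with a CTD-ind site.
Ccnd3 (second start, chr17:47593309-47593338, plus strand): gtcagaagggaCCCGAGGGcccggaagcgt
Mycn (chr12:12941877-12941906, minus strand): tctctccccgcCCCCCGGGtgtgtcagatt
Cdk4 (chr10:127063545-127063574, plus strand): gcccgccccgcCCCCCGGGtttccgcgcgc
Cdk6 (chr5:3343899-3343928, plus strand): ctgcgctcatcCCCGAGGGgccccagcaac
Cdkn2a (chr4:89294722-89294751, minus strand): gcgcgcgcctcCCCCTGGGcgcctctggga
Mxi1 (chr19:53329376-53329405, plus strand): ggactacatttCCCAGGGGgcagcggaagg
Atr (chr9:95857562-95857591, plus strand): ctctgggatttCCCCAGGGttccaaccgca
Sesn2 (chr4:132510494-132510523, minus strand): tccccgccctcCCCCAGGGaccgcagcggg
The nearest site was centred 0.889 kb from the second start of Ccnd3, and 45.8 kb or farther from the starts of Mycn, Cdk4, Cdk6 and Cdkn2a. It was centred 32.5 bp from the start of Mxi1, 35.5 bp from that of Atr and 51.5 bp from that of Sesn2. A match of these letters is a description and shows no binding, and no match says only that the letters are not in the window.

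Ccnd3 is the one of the 10 genes with a site within 1 kb of a listed start, so the window of that start is shown whole. It covers chr17:47593217-47593516 on the plus strand and ends 0.691 kb before the CTD-ind site begins, with the core in capitals.
Ccnd3, second start: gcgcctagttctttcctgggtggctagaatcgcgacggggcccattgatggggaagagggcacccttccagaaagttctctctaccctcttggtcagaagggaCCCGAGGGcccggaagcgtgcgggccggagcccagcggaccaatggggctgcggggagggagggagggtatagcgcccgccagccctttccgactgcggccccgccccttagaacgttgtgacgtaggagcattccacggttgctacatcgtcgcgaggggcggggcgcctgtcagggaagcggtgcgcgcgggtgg

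Around Myc and the G1 genes, 4 lists of other genes of the pathway were described, 74 genes in all. The Myc network list holds genes for proteins that pair with MAX, the partner of Myc. It also holds other genes linked to Myc or MAX, such as Odc1, Ncl and Fbxw7. Of its 20 genes, 10 had an assigned site (50.0%), against 19.6% of all protein-coding genes. Of the 18 sites, 12 were YmA-ind, 1 YmA-dep and 5 CTD-ind. A site inside or within 10 kb was found at 10 of these 20 genes, against 22.3%.

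Several antagonists of Myc within this list had a site at the gene. MXD1, MXD3, MXD4, MXI1 and MNT bind MAX and repress genes that Myc activates. Their 5 genes each had a site inside or within 0.396 kb. They had 9 assigned sites in all, some of them farther out. This grouping was chosen after the values were seen, and 0.396 kb is the distance at its farthest gene, Mxd1. That all 5 fall within it was therefore fixed in advance. Over all protein-coding genes, 14.58% had a site inside or within 398 bp, which is given as description only. Mga, the gene of another repressor that binds MAX, had no assigned site, and its nearest lay 63.5 kb away. Among the 15 genes of the list outside those 5, Mga included, 5 had an assigned site, against 19.6% of all protein-coding genes. Mxi1 had 3 sites inside: YmA-ind (chr19:53320655-53320954), YmA-dep (chr19:53328057-53328356) and CTD-ind (chr19:53329231-53329530), the last at a start. Mxd3 and Mxd4 had 2 YmA-ind sites each, 1 inside the gene and 1 outside it at 0.73 kb and 2.00 kb. Mxd1 and Mnt had 1 CTD-ind site each, 0.396 and 0.303 kb outside.

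Outside that group, Max had 3 sites, and Mycl and Mlxipl had 2 each. The sites of Max were YmA-ind and lay outside the gene at 54.9, 94.1 and 94.8 kb, so none was left with a limit of 20 kb. Mycl, the third Myc family gene, held a CTD-ind site (chr4:122996019-122996318) and a YmA-ind site (chr4:122997109-122997408), 0.237 and 1.33 kb after a listed start. Mlxipl, the gene of a factor that pairs with the MAX-like protein MLX, held a YmA-ind site and a CTD-ind site, 4.11 and 12.7 kb after different listed starts. Of the 3 Myc family genes, Mycl was thus the one with sites inside, Mycn had its nearest at 40.0 kb and Myc at 339 kb.

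**Figure D4:**
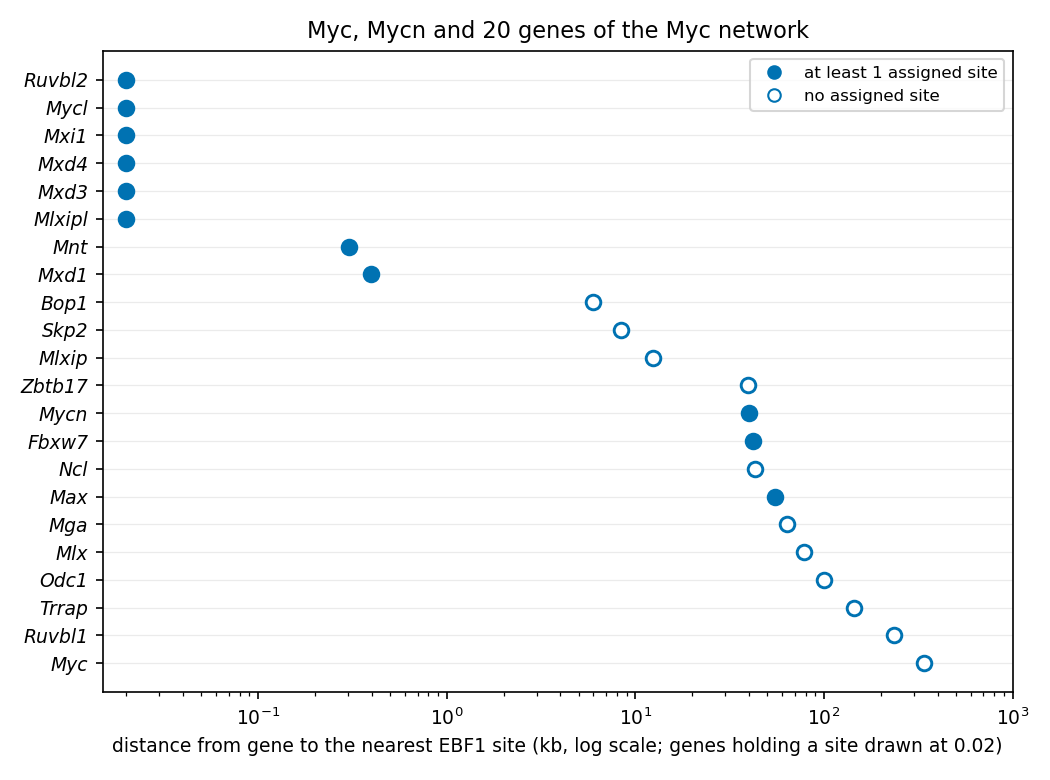
Distance in kb (log scale) from Myc, Mycn and the 20 Myc network genes to the nearest EBF1 site. Filled circles have an assigned site, and genes holding a site are drawn at the left edge. Mnt (0.303 kb) and Mxd1 (0.396 kb) follow the genes that hold a site, and Myc (339 kb) is the farthest of the 22.

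The remaining lists stood nearer to the background. Of 23 other regulators of the step from G1 to DNA synthesis, 3 had an assigned site (13.0%), against 19.6% of all protein-coding genes. E2f8, which encodes a repressor of the E2F family, had 3 YmA-ind sites, 6.06, 6.70 and 22.8 kb before the gene. E2f2, the gene of an activating E2F factor, had a CTD-ind site inside, and Rb1, the gene of the retinoblastoma protein, had a YmA-ind site 14.6 kb away. Neither cyclin E gene (Ccne1, Ccne2) nor their kinase gene Cdk2 had an assigned site.

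Of 16 genes of the p53 and checkpoint list, 5 had an assigned site (31.2%), against 19.6% of all protein-coding genes. Pmaip1, the gene of the cell death protein NOXA, had 2 YmA-ind sites, 5.16 and 10.7 kb outside. Sesn2, a p53-induced stress gene, had a CTD-ind site at its start. Btg2, Trp53inp1 and Gadd45a had 1 site each, 14.2, 27.0 and 40.3 kb away. Trp53 and Mdm2 had none assigned. The list of later phases holds cyclin and kinase genes and others such as Cdc20, Cdc25b and Mki67. Of its 15 genes, 2 had an assigned site (13.3%), against 19.6% of all protein-coding genes. Aurkb held a CTD-ind site and Wee1 had a YmA-ind site 37.5 kb away.

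**Figure D5:**
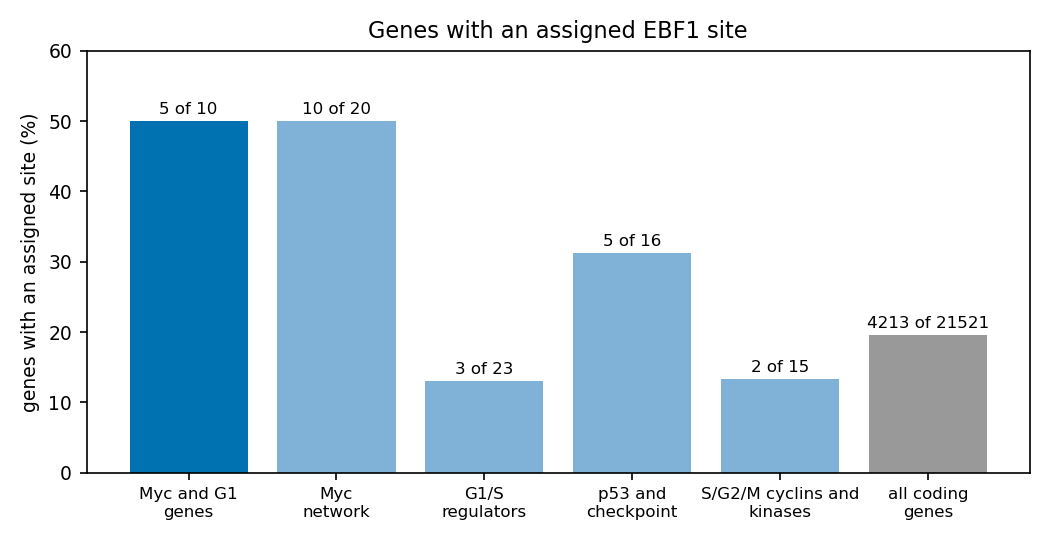
Share of genes (%) with an assigned EBF1 site in the 10 Myc and G1 genes, the 4 other lists and all protein-coding genes. The 10 genes and the Myc network list stand at 50.0%, the others between 13.0 and 31.2%, and all protein-coding genes at 19.6%. The exact 95% interval for the 10 genes, not drawn, is 18.7 to 81.3%.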

How the data were processed

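ChIP-seq of EBF1 was represented by 1 file, deposited with the EBF1 wt library, which holds site positions and a text class per site. Per the submitters' processing notes, the authors' tools included deepTools, Bowtie2 and SAMtools, and the build was GRCm38 (mm10). The sources used here do not give the peak caller, its threshold, or how the 300 bp widths and the classes were made. Gene spans came from RefSeq GRCm38.p6. Rows of scaffolds filed under a chromosome were left out (363), which kept 49209 genes on 20 chromosomes, 21521 of them protein-coding. That table gives no strand or exons, so starts and strand came from RefSeq promoter windows, present for 17274 of the 21521 genes and not used here for Myc, Ccnd1 and Ccnd2. All 84 gene names matched by symbol. Exact binomial intervals (95%) used SciPy 1.17.1, and tables used pandas 2.3.3 and NumPy 2.4.6 in Python 3.11.15. The assignment was checked on simulated sites.

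The 10 genes and the lists were chosen with earlier results of these data known, so no test of a list was made. All 10 genes are named with their sites, and up to 5 genes with the most sites per list. Other genes are named for their place beside these or their role, some after their values were seen. Alternatives to the 100 kb limit, to the use of 1 gene per site, to placing by centre, to spans and to protein-coding genes are given in the closing section. Read depth is unknown.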

Additional observations from a re-analysis of the deposited data

How the results depend on the processing

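Of 144 values recomputed under alternatives, 101 stayed within 1.5 times the main count and 43 did not, 17 of them counts of single genes. The sites inside genes stayed 4 under the 7 assignment alternatives. A site inside a gene was assigned before any distance limit or listed start applied, so those alternatives could not change this count. Letting any overlap of a site with a span count changed no value. With a limit of 20 kb, genes with a site numbered 3 of 10 and CTD-ind sites 1. Genes of the p53 and later-phase lists then numbered 3 of 16 and 1 of 15. With no limit, the sites became 13 and the YmA-ind sites 11. Counting every site inside or within 10 kb gave 2 of 10 genes, 1 CTD-ind site and 5 of the 23 genes of the G1/S list. Over all protein-coding genes, 22.3% had such a site. Counting every site within 100 kb gave 26 sites (12 YmA-ind, 12 CTD-ind, 2 YmA-dep). Such a site was found at 17 of 20 Myc network, 15 of 23 G1/S, 11 of 16 p53 and 10 of 15 later-phase genes. Over all protein-coding genes that share was 53.4%. With non-coding genes competing, 2 of the 10 genes had 4 sites (3 YmA-ind, 1 CTD-ind). The p53 and later-phase lists then had 2 of 16 and 1 of 15 genes. For this rule and the 20 kb limit, the shares of all protein-coding genes were not computed. With the nearest listed start, the 10 genes had 9 sites, 3 of them at Cdkn1a. In place of far sites nearest to the gene, all sites within 1 Mb of Mycn were 10, and within 2 Mb there were 8 at Myc and 12 at Mycn. The limits and flanks change which sites are admitted, while non-coding genes and listed starts change which gene receives a site. No paired analysis was possible because each group holds 1 library and the results come from no test. Without a score no stricter site list could be made.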

Other observations

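Several genes of the lists had a site inside or within 10 kb that was assigned to a neighbour. Over all protein-coding genes, 22.3% had a site inside or within 10 kb, whatever gene it was assigned to. A site lay inside Rb1 but in Lpar6, a gene within it. Atr had a site 35.5 bp from its start that was assigned to 1700065D16Rik. Bax had one 1.70 kb away assigned to Ftl1, and Cdkn2d, the gene of another CDK4 and CDK6 inhibitor, had one 3.23 kb away assigned to Kri1. Rbl1, a relative of Rb1, had one at 6.22 kb assigned to Samhd1. Skp2, whose product marks p27 for degradation, had one at 8.36 kb assigned to Lmbrd2. Bop1 had one at 5.97 kb assigned to Mroh1, and Cdc25c one at 8.58 kb assigned to Fam53c.

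Of the 23 genes of the G1/S list, 5 (21.7%) were more than 200 kb from any listed site, against 34.0% of all protein-coding genes. The nearest site was 323 kb from Cdkn1c, 455 kb from Cdc25a, 609 kb from E2f3, 684 kb from Cdkn2c and 767 kb from E2f7. The median of the list was 54.1 kb, against 82.8 kb over all protein-coding genes.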
